A study of Mus musculus with 48 samples.

Results

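SR proteins are splicing factors whose tails of alternating serine and arginine are phosphorylated in cycles, and 8 protein kinases that phosphorylate these tails or belong to the same kinase group were followed: Clk1, Clk2, Clk3, Clk4, Srpk1, Srpk2, Srpk3 and Dyrk1a. They were chosen by gene name, with earlier results of these data known. All 8 of 8 were found among the 47480 gene symbols measured. RNA was sequenced from C2C12 cells, an established line of mouse myoblasts that differentiates into muscle cells in culture. Cells were grown on flexible plates coated with collagen and were stretched by a Flexcell instrument in cycles and equally in both directions of the plane, or were left non-stretched on the same kind of plate. Stretched and non-stretched cells were collected at 3 times (1 h, 3 h and 6 h), as myoblasts and as differentiated cells, which the labels call myotubes. Each of the 12 groups held 4 libraries, 48 in all, and the labels name no genetic change or drug in any group. The cells came from 1 line and the differentiated cultures may still hold cells that had not fused.

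The SR protein kinases work in 2 compartments. In the cytoplasm, SRPK proteins phosphorylate SR proteins so that the importer transportin-SR can carry them into the nucleus, where they gather in nuclear speckles. In the nucleus, CLK proteins add further phosphates, which releases SR proteins from the speckles to sites of transcription and splicing. CLK genes are known to be regulated through their own splicing, since they make transcripts that skip an exon needed for the kinase domain and transcripts that keep introns in the nucleus. DYRK1A is a related kinase that phosphorylates splicing factors and many other proteins. SRPK3 is the member of its family that skeletal and heart muscle use.

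The 4 Clk genes share an exon organisation, in which exon 4 is the alternatively skipped one. It is shown because a count summed over the transcripts of a gene cannot tell the form with this exon from the form without it. In the GENCODE vM21 annotation of mm10, exon 4 of Clk1 spans chr1:58420121-58420211 on the minus strand, that of Clk2 chr3:89169618-89169702 on the plus strand, that of Clk3 chr9:57758627-57758723 on the minus strand and that of Clk4 chr11:51273078-51273168 on the plus strand. Each lies in coding sequence, and capitals mark the bases shared with Clk1 in an alignment (for Clk1, with Clk4).
Clk1 exon 4: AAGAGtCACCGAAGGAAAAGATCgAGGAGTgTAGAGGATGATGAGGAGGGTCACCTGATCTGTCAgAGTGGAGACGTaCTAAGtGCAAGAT
Clk2 exon 4: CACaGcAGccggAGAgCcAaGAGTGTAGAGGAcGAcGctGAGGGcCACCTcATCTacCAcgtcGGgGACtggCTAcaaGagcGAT
Clk3 exon 4: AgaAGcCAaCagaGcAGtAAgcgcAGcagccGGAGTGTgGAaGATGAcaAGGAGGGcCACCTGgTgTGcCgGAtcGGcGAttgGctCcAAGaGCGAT
Clk4 exon 4: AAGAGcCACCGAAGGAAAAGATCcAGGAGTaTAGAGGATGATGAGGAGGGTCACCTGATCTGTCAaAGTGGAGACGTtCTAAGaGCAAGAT
The exons are 91, 85, 97 and 91 bases long, and each length leaves a remainder of 1 when divided by 3, so that joining exon 3 to exon 5 shifts the reading frame. Clk1 and Clk4 share 85 of 91 bases of this exon (93.4%) and 73.4% of the columns of their aligned coding sequences. The next closest exon pair, Clk2 and Clk3, shares 65.3%. Transcripts that join exon 3 to exon 5 are annotated for each Clk gene, 3 for Clk1, 1 for Clk2, 1 for Clk3 and 3 for Clk4.

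The annotation holds many Clk transcripts that keep an intron. Of 13 Clk1 transcripts (chr1:58410189-58424066, minus strand), 1 is protein coding, 7 retain an intron and 2 are targets of nonsense-mediated decay. Of 14 Clk4 transcripts (chr11:51261730-51281766, plus strand), 4 are protein coding, 7 retain an intron and 3 are targets of nonsense-mediated decay. Clk2 (chr3:89164795-89176921, plus strand) has 4 of 11 transcripts with a retained intron and Clk3 (chr9:57750624-57765860, minus strand) 4 of 9. Srpk1 (chr17:28587648-28622709, minus strand) has 6 of 13, Srpk2 (chr5:23503264-23684617, minus strand) 3 of 10, Srpk3 (chrX:73774405-73778925, plus strand) 3 of 4 and Dyrk1a (chr16:94570010-94695517, plus strand) 1 of 6. The deposited count of a gene sums these transcripts, so a level below is the RNA of the gene and not of its protein-coding form. The share of a gene's sequence that other genes also hold was 0.937% for Clk1, 2.07% for Clk4 and 7.07% for Srpk1, the highest of the 8.

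The libraries held between 48447318 and 77080730 counts. Levels are given as CPM, the counts of a gene scaled to a common library size with the TMM method within a stage, and every mean is followed by its SD over 4 libraries. Expression of the defining muscle genes matched the labelled stages: Myog, the transcription factor that starts differentiation, had between 42431 and 66238 counts in a library of differentiated cells and between 19 and 178 in a myoblast library. Of 7 marker genes of other cell types, their summed level stayed between 0.60 and 1.23 CPM in every group, with Adgre1 at 0 in all libraries. Fos, an immediate early gene, was higher in stretched than in non-stretched cells at 1 h by 2.16 ± 0.109 on the log2 scale (± SE) in myoblasts (adjusted p = 1.51e-06, edgeR's quasi-likelihood test) and by 2.76 ± 0.453 in differentiated cells (adjusted p = 0.0302). At 1 h, replicate 4 of the stretched group of differentiated cells stood apart, with a summed level of 7 stretch-responsive genes of 3320 CPM against 1166 to 1199 CPM in the other stretched libraries. Its summed level of 8 marker genes of proliferating myoblasts was 779 CPM. The other stretched libraries held 512 to 550 CPM of these markers and the non-stretched ones 475 to 598 CPM. Replicate 4 thus stood apart in both sets of genes. It is also the only library of its experiment. Without it the change in Fos was 2.04 (adjusted p = 0.00019). Below, the changes of Clk1 and Srsf5 at 1 h and the differences between times are given also without it. The other results for differentiated cells at 1 h, and the differences between stages at 1 h, include it.

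At 1 h, Clk1 was downregulated by stretching in both stages and Clk4 in myoblasts. At 3 h and 6 h the calls among the Clk genes were all upward. The change in Clk1 at 1 h in differentiated cells was the only one among the 8 kinases that passed both an adjusted p under 0.05 and a log2 fold change of 0.58.

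In non-stretched myoblasts at 1 h, Clk1 stood at 49.4, 44.7, 61.2 and 46.8 CPM in replicates 7 to 10. In stretched myoblasts it stood at 37.4, 36.5, 33.9 and 35.3 CPM, so all 4 stretched libraries lay below all 4 non-stretched ones. Clk1 encodes a nuclear kinase of SR proteins that also acts on the splicing of its own transcript. Its mean fell from 50.5 ± 7.37 to 35.8 ± 1.51 CPM, a log2 fold change of -0.50 ± 0.083 (adjusted p = 0.00462). The change was -0.35 within the experiment of replicates 7 and 8 and -0.63 within that of replicates 9 and 10.

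Clk1 in differentiated cells at 1 h stood at 63.5, 56.1, 56.5 and 54.3 CPM in the non-stretched replicates 7 to 10. In the stretched replicates 4, 7, 8 and 9 it stood at 34.3, 28.8, 29.1 and 40.9 CPM. The groups did not overlap, and the highest stretched library was replicate 9. The mean fell from 57.6 ± 4.07 to 33.3 ± 5.68 CPM, a log2 fold change of -0.79 ± 0.105 (adjusted p = 0.0135). Without replicate 4 the log2 fold change was -0.81 (adjusted p = 0.0135). It was -1.04 within the experiment of replicates 7 and 8. Within that of replicates 9 and 10, where replicate 9 was the only stretched library, it was -0.44. Leaving out single libraries gave adjusted p between 0.00354 and 0.0717, with the call lost in 4 of 8 cases: non-stretched replicate 7 (0.0717), 8 (0.0699) or 9 (0.0686) and stretched replicate 8 (0.0590).

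Clk4 is the closest relative of Clk1. In myoblasts at 1 h, Clk4 stood at 25.2, 23.0, 27.7 and 23.8 CPM without stretching and at 20.9, 21.6, 20.5 and 19.4 CPM with it. The stretched libraries again lay below the non-stretched ones. The log2 fold change was -0.27 ± 0.0587 (adjusted p = 0.0189), and leaving out stretched replicate 10 raised the adjusted p to 0.0754, the highest of 3 such losses. Clk4 means in differentiated cells at 1 h were 26.2 ± 1.26 CPM without and 21.3 ± 2.24 CPM with stretching, a log2 fold change of -0.30 ± 0.0733 that did not pass the test (adjusted p = 0.120) although the groups did not overlap. DESeq2 gave an adjusted p of 0.0220 for the same gene and time.

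At 3 h both genes stood above the non-stretched level in myoblasts. Clk1 ran at 45.8, 47.3, 45.7 and 46.1 CPM without stretching and at 58.7, 55.4, 52.5 and 59.8 CPM with it. Its log2 fold change was 0.30 ± 0.0381 (adjusted p = 8.63e-05), with 0.29 in each experiment. Clk4 ran at 24.0, 25.5, 21.5 and 24.2 CPM without and at 31.2, 30.2, 28.6 and 31.2 CPM with stretching, a log2 fold change of 0.35 ± 0.0475 (adjusted p = 0.000128). In neither gene did the groups overlap. Leaving out any single library kept the adjusted p at or below 0.000547 for Clk1 and 0.000700 for Clk4.

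In differentiated cells at 3 h, Clk4 stood at 22.0, 21.3, 27.6 and 26.3 CPM without stretching and at 29.5, 32.4, 31.9 and 31.4 CPM with it. All stretched libraries were above all non-stretched ones, and the log2 fold change was 0.36 ± 0.0784 (adjusted p = 0.00800). Clk1 in the same libraries had means of 54.7 ± 5.63 and 62.6 ± 2.14 CPM, and its groups overlapped. Its log2 fold change of 0.19 ± 0.0640 lay at the threshold (adjusted p = 0.0520), with 0.34 within the experiment of replicates 7 and 8 and 0.06 within the other. The adjusted p of Clk1 was 0.0210 with DESeq2 and 0.0243 with the experiment as a covariate, and leaving out single libraries moved it between 0.00682 and 0.123.

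At 6 h Clk1 and Clk4 passed the test upward in both stages, but not all of these calls held under other settings. In myoblasts, Clk1 had means of 48.2 ± 2.44 CPM without and 52.8 ± 1.52 CPM with stretching, a log2 fold change of 0.13 ± 0.0390 (adjusted p = 0.0264). Its groups overlapped slightly, and leaving out a library lost the call in 4 of 8 cases, with adjusted p up to 0.0815, as did a model of all 24 libraries of the stage (0.132). Clk4 rose from 23.9 ± 0.963 to 27.7 ± 1.92 CPM, a log2 fold change of 0.22 ± 0.0513 (adjusted p = 0.00955). In differentiated cells, Clk1 rose by 0.22 ± 0.0559 on the log2 scale (adjusted p = 0.0167) and Clk4 by 0.20 ± 0.0542 (adjusted p = 0.0225), and leaving out non-stretched replicate 8 took them to adjusted p of 0.0544 and 0.0691. That was the only library that decided the call of Clk1, while 4 of 8 decided that of Clk4. Neither call held in the model of 24 libraries (adjusted p = 0.0659 for Clk1 and 0.0572 for Clk4). Clk1 kept 3 non-stretched libraries between 50.2 and 50.7 CPM and replicate 9 at 59.5 CPM. Its lowest stretched library stood at 59.1 CPM, so its groups overlapped in differentiated cells as well.

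**Figure D1:**
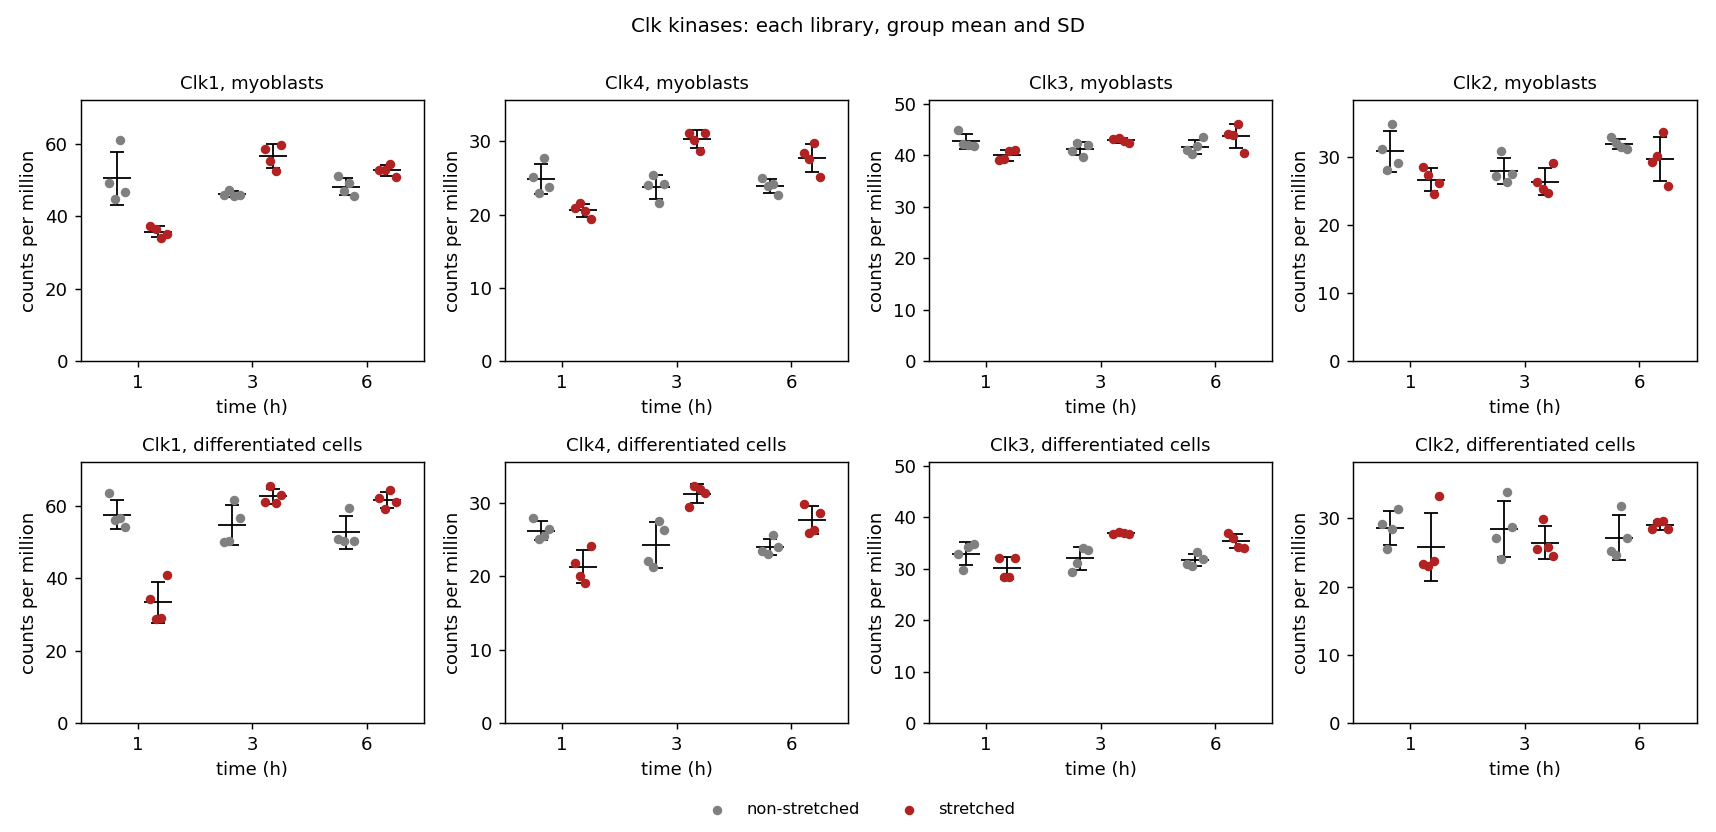
Level of the 4 Clk genes in CPM (y axis, from 0) at 1, 3 and 6 h (x axis) in myoblasts (top) and differentiated cells (bottom). Each point is a library, grey for non-stretched and red for stretched, and the bars give the mean and SD of 4 libraries. Clk1 and Clk4 lie lower in stretched cells at 1 h and higher at 3 h (with overlap for Clk1 in differentiated cells), while Clk2 overlaps between the groups at each time.

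Clk3 passed the test at 3 h and 6 h in differentiated cells. Clk3, a nuclear kinase of the same family, did not pass the test in myoblasts, where it had 42.8 ± 1.46 CPM without and 40.0 ± 1.05 CPM with stretching at 1 h (log2 fold change -0.09, adjusted p = 0.168). At 3 h in differentiated cells it stood at 29.3, 31.1, 34.1 and 33.6 CPM without stretching and at 36.7, 37.2, 36.9 and 36.6 CPM with it. The stretched libraries lay close together, from 36.6 to 37.2 CPM, and above all non-stretched ones. Clk3 rose there by 0.20 ± 0.0468 on the log2 scale (adjusted p = 0.0114) and at 6 h by 0.16 ± 0.0411 (adjusted p = 0.0199), where 4 of 8 single libraries decided the call and a fit with the replicate number as a block gave an adjusted p of 0.0596. Clk2, which also phosphorylates metabolic regulators in the liver, passed the test at no time in either stage, with log2 fold changes between -0.21 (myoblasts, 1 h, adjusted p = 0.103) and 0.09 (differentiated cells, 6 h, adjusted p = 0.407). Stretched replicate 9 of the differentiated cells at 1 h held 33.3 CPM of Clk2 against 23.0 to 23.7 CPM in the other 3 stretched libraries.

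Of the SRPK genes, Srpk1 passed the test once in each stage. In myoblasts at 3 h, Srpk1, the most abundant SRPK of these myoblasts, stood at 116, 117, 113 and 114 CPM without stretching and at 122, 122, 119 and 127 CPM with it. The groups did not overlap, and the log2 fold change was 0.10 ± 0.0261 (adjusted p = 0.00886). Srpk1 in differentiated cells at 6 h stood at 59.1, 57.5, 58.7 and 57.5 CPM without stretching and at 64.7, 64.8, 65.6 and 65.5 CPM with it. The stretched libraries were all above the non-stretched ones, and the log2 fold change was 0.16 ± 0.0269 (adjusted p = 0.00273), a call that no single library decided (adjusted p up to 0.0136). At the other 4 combinations of stage and time, Srpk1 had log2 fold changes between -0.05 and 0.04.

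Srpk2, a cytoplasmic and nuclear kinase of SR proteins, changed sign in myoblasts. At 3 h it stood at 64.8, 67.0, 72.0 and 70.9 CPM without stretching and at 75.6, 72.3, 76.6 and 73.2 CPM with it, a log2 fold change of 0.12 ± 0.0347 (adjusted p = 0.0156). At 6 h it stood at 67.2, 64.6, 70.1 and 67.7 CPM without stretching and at 57.0, 62.2, 60.2 and 64.1 CPM with it. The stretched libraries lay above the others at 3 h and below them at 6 h. The log2 fold change at 6 h was -0.14 ± 0.0397 (adjusted p = 0.0192). Leaving out stretched replicate 9 at 3 h gave an adjusted p of 0.0524, and leaving out non-stretched replicate 9 at 6 h gave 0.0612. The model of 24 libraries gave 0.0729 at 3 h. In differentiated cells Srpk2 had log2 fold changes of 0.01, -0.06 and -0.08 at 1, 3 and 6 h, with adjusted p of 0.993, 0.257 and 0.120.

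Srpk3 could be tested only in differentiated cells, because its counts in the 24 myoblast libraries lay between 0 and 9 and summed to 77. In differentiated cells it stood near 30 CPM, with means of 30.1 ± 2.99 and 30.4 ± 2.17 CPM at 1 h, 30.2 ± 1.54 and 29.2 ± 2.25 CPM at 3 h, and 29.2 ± 1.17 and 25.7 ± 2.44 CPM at 6 h, non-stretched and stretched. At 6 h the stretched libraries (25.5, 27.9, 22.3 and 26.9 CPM) lay below the non-stretched ones (28.03, 29.3, 30.8 and 28.6 CPM). The log2 fold change of -0.19 ± 0.0649 did not pass the test (adjusted p = 0.0627). DESeq2 gave an adjusted p of 0.0373. Of 8 fits that left out a library, 7 did not pass, and that without stretched replicate 8 did (0.0380).

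Dyrk1a was already higher in stretched myoblasts at 1 h. It stood at 112, 115, 122 and 117 CPM without stretching and at 127, 133, 130 and 131 CPM with it, a log2 fold change of 0.17 ± 0.0335 (adjusted p = 0.0133). Leaving out stretched replicate 10 gave an adjusted p of 0.0658. At 3 h it stood at 116, 119, 123 and 119 CPM without stretching and at 150, 144, 149 and 142 CPM with it. The gap between the groups was then wider than the range within either, and the log2 fold change was 0.30 ± 0.0272 (adjusted p = 8.19e-06). At 6 h the means were 120.3 ± 4.37 and 120.3 ± 3.07 CPM, and the groups overlapped (adjusted p = 0.965). Dyrk1a in differentiated cells at 3 h rose from 167 ± 3.72 to 195 ± 5.74 CPM, a log2 fold change of 0.22 ± 0.0293 (adjusted p = 0.000804). The changes there at 1 h and 6 h, 0.15 ± 0.0493 and 0.08 ± 0.0365, did not pass the test (adjusted p = 0.314 and 0.152). The model of all 24 libraries of the stage gave an adjusted p of 0.0241 at 1 h.

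**Figure D2:**
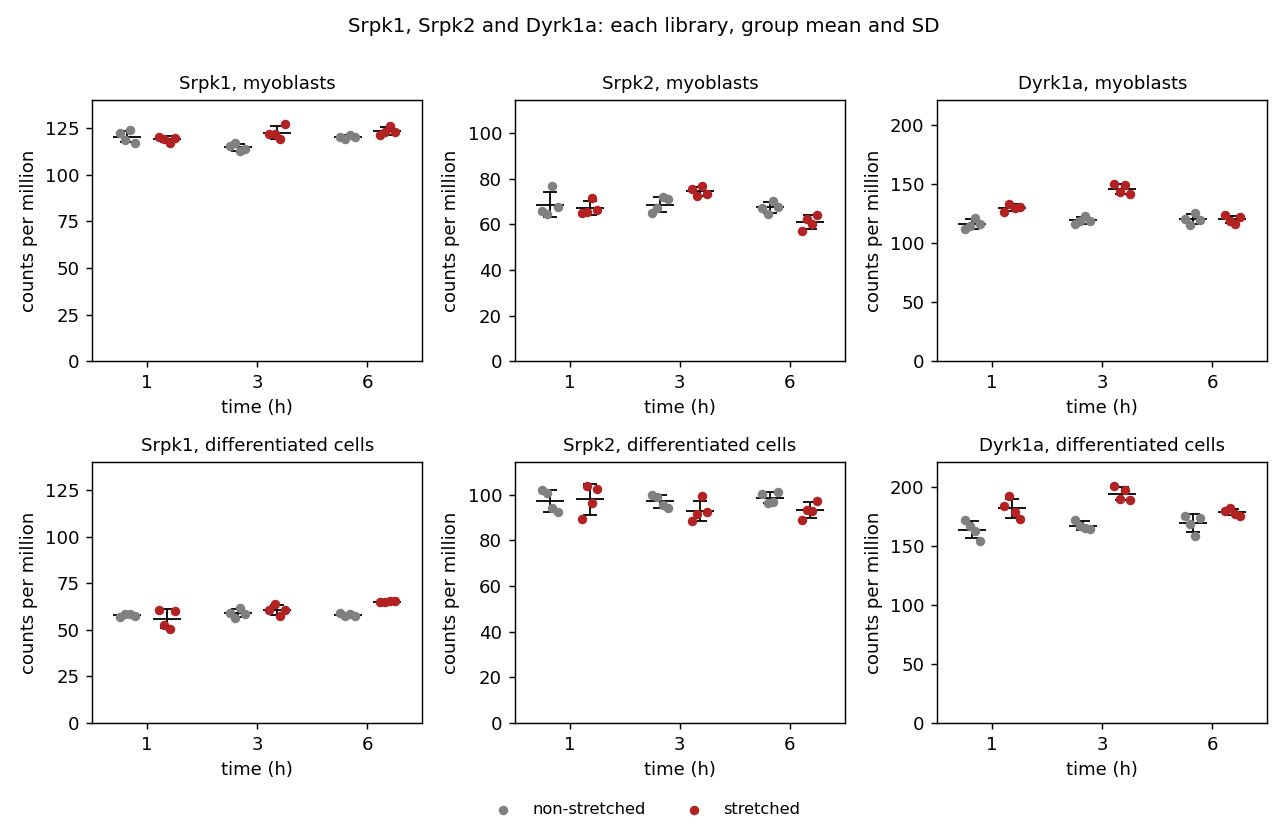
Level of Srpk1, Srpk2 and Dyrk1a in CPM (y axis, from 0) at 1, 3 and 6 h (x axis) in myoblasts (top) and differentiated cells (bottom). Points are libraries, grey for non-stretched and red for stretched, with the mean and SD of 4 libraries. Dyrk1a lies between 142 and 150 CPM in stretched myoblasts at 3 h against 116 to 123 CPM in non-stretched ones, and Srpk1 lies lower in differentiated cells than in myoblasts in every group. CPM was scaled within each stage.

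Counted over the kinases, 1 of 7 tested in myoblasts at 1 h was higher (Dyrk1a) and 2 were lower (Clk1 and Clk4), where 1.67% and 4.24% of the 14938 genes tested were higher and lower. At 3 h, 5 of 7 were higher and none lower, against 16% and 15.8% of 14813 genes. At 6 h, 2 of 7 were higher and 1 was lower, against 14.1% and 13% of 14938 genes. In differentiated cells at 1 h, 1 of 8 was lower, against 0.193% higher and 0.47% lower of 15538 genes, and 0.18% of genes were lower at both limits. At 3 h, 3 of 8 were higher, against 10.8% higher and 11.4% lower of 15513 genes. At 6 h, 4 of 8 were higher, against 11.5% higher and 10.8% lower of 15433 genes. The median log2 fold change of the tested kinases ran from -0.09 (myoblasts, 1 h) to 0.12 (differentiated cells, 6 h), while that of all tested genes stayed within 0.01 of 0 in each comparison. By DESeq2, 3, 5 and 3 kinases passed in myoblasts and 2, 4 and 5 in differentiated cells.

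**Figure D3:**
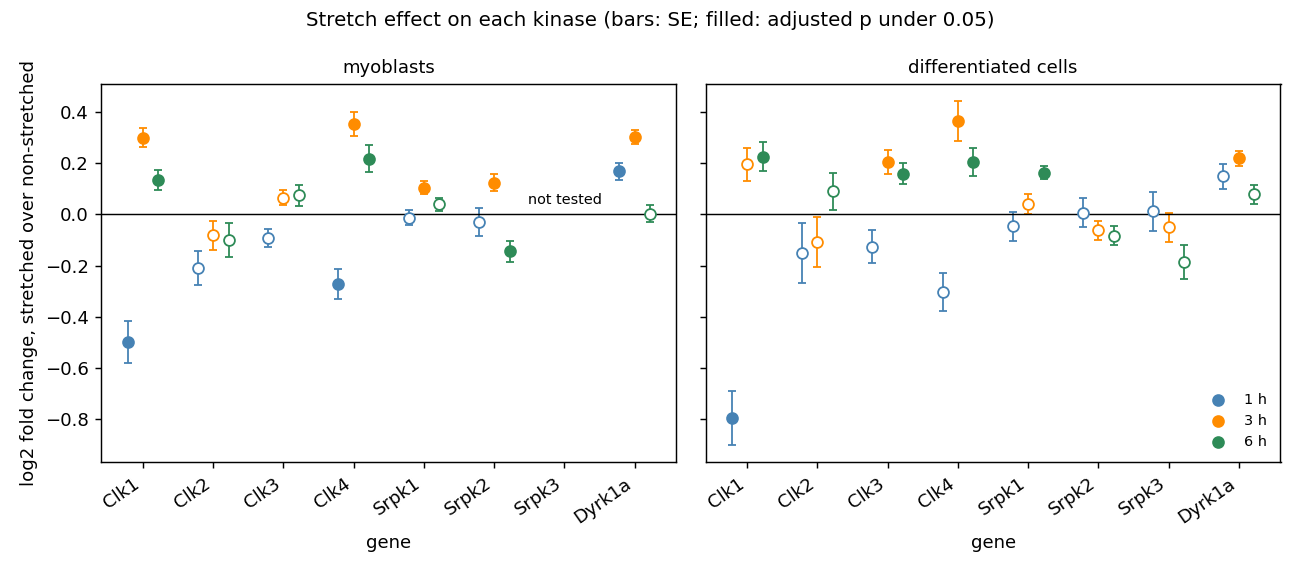
Log2 fold change of stretched over non-stretched cells (y axis) for each kinase (x axis) at 1, 3 and 6 h, in myoblasts (left) and differentiated cells (right). Bars are the SE from 8 libraries, filled points passed an adjusted p under 0.05, and Srpk3 was not tested in myoblasts. Clk1 at 1 h has the lowest points, -0.50 in myoblasts and -0.79 in differentiated cells.

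Whether the effect of stretching differed between times was tested within each stage in a model of its 24 libraries. In myoblasts the effect at 3 h exceeded that at 1 h for 4 of 7 kinases, where 10.9% of genes differed in either direction: Clk1 by 0.79 ± 0.0916 on the log2 scale (adjusted p = 2.65e-06), Clk4 by 0.62 ± 0.0809 (adjusted p = 1.15e-05), Clk3 by 0.15 ± 0.0496 (adjusted p = 0.0494) and Srpk1 by 0.11 ± 0.0338 (adjusted p = 0.0323). The call of Clk3 was lost in 13 of 24 fits that left out a library (adjusted p up to 0.109), without a filter on low counts (0.0701) and with a replicate block (0.0654). That of Srpk1 was lost in 5 of 24 such fits (adjusted p up to 0.0675) and without the filter (0.0752). Between 6 h and 1 h, 4 of 7 differed, against 21.1% of genes. Clk1 was higher by 0.63, Clk4 by 0.49 and Clk3 by 0.17, and Dyrk1a was lower by a difference of -0.17 ± 0.0432 (adjusted p = 0.00731). Between 6 h and 3 h, Srpk2 (-0.26 ± 0.0668, adjusted p = 0.00457) and Dyrk1a (-0.29 ± 0.0432, adjusted p = 2.12e-05) were lower, 2 of 7 against 26.5% of genes. The reversal of Clk1 and Clk4 between 1 h and 3 h, and the loss of the Dyrk1a effect by 6 h, were therefore larger than the spread between libraries. The 3 differences in a stage share libraries and are not independent of each other.

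In differentiated cells, the effect at 3 h exceeded that at 1 h for 3 of 8 kinases, against 5.15% of genes in either direction. Clk1 differed by 0.98 ± 0.123 (adjusted p = 5.04e-05), Clk4 by 0.66 ± 0.107 (adjusted p = 0.000517) and Clk3 by 0.33 ± 0.0758 (adjusted p = 0.0117). Without stretched replicate 4 at 1 h these were 1.00 (adjusted p = 4.63e-05), 0.68 (0.000534) and 0.36 (0.00493). At 6 h against 1 h, 4 of 8 differed, against 11.9% of genes, with Clk1 at 1.02 ± 0.123, Clk4 at 0.50 ± 0.107, Clk3 at 0.28 ± 0.0759 and Srpk1 at 0.21 ± 0.0628. The Srpk1 call was lost in 9 of 24 fits that left out a library, with adjusted p from 0.0503 to 0.0766. Without stretched replicate 4 at 1 h the differences were 1.03, 0.52, 0.31 and 0.25, with adjusted p up to 0.0078. At 6 h against 3 h, 0 of 8 passed edgeR's quasi-likelihood test, against 12% of genes, with 1 at an unadjusted p under 0.05 (Dyrk1a, -0.14) and 0 by DESeq2.

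The stretch effect was not shown to differ between the stages for any kinase. At 1 h, 3 h and 6 h, 0 of 8 passed edgeR's quasi-likelihood test of that difference in a model of 48 libraries, where 0.17%, 1.01% and 5.98% of 17044 genes did. Srpk3 entered this model only through its counts in differentiated cells. Its 95% interval at 1 h ran from -1.16 to 1.52, so the test could not decide for this gene. At an unadjusted p under 0.05 there was 1 kinase at each time, and DESeq2 passed 0. The difference of Clk1 at 1 h, differentiated minus myoblast, was -0.30 with a 95% interval from -0.52 to -0.08 (adjusted p = 0.615). That of Srpk2 at 3 h was -0.20, from -0.33 to -0.07 (adjusted p = 0.192), and that of Srpk1 at 6 h 0.14, from 0.05 to 0.24 (adjusted p = 0.0753). For Clk4 the interval at 3 h ran from -0.19 to 0.19.

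Without stretching, Srpk1, Srpk2, Srpk3 and Dyrk1a differed between the stages by more than at any time of stretching. In the 12 non-stretched libraries of each stage, 7 of 8 passed the test, against 88.4% of 17044 genes, so the count itself sits near the background. Only Srpk1 and Srpk3 also reached the log2 fold change of 0.58 planned for this comparison. The share of all genes that reached it was not counted. The stages were grown in different experiments, so stage and experiment cannot be told apart. For this comparison CPM was scaled over all 48 libraries. Srpk1 was lower in differentiated cells by a log2 fold change of -0.97 ± 0.0205 (adjusted p = 1.58e-36), from 116.5 ± 3.86 to 59.3 ± 1.43 CPM (n = 12 per stage). Srpk2 was higher by 0.57 ± 0.0277 (adjusted p = 8.24e-23), from 67.0 ± 3.52 to 99.5 ± 3.28 CPM. Dyrk1a was higher by 0.54 ± 0.0201 (adjusted p = 3.10e-27), from 116.5 ± 3.83 to 169.8 ± 6.44 CPM. The order of the 2 ubiquitous SRPK genes was thus turned, with Srpk1 above Srpk2 in myoblasts and below it in differentiated cells in CPM. Among the Clk genes, Clk3 was lower by -0.33 ± 0.0264 (adjusted p = 2.68e-15), Clk1 higher by 0.24 ± 0.0457 (adjusted p = 8.41e-06) and Clk4 higher by 0.09 ± 0.0398 (adjusted p = 0.0382). Of these stage calls, that of Clk4 lay nearest the threshold. Over the 8 kinases, 22 of 192 stage results that left out a library lost the call and 1 gained it. Under other settings 6 of 48 lost it, 1 gained it and 1 changed sign. Clk2 had a log2 fold change of -0.05 with a 95% interval from -0.16 to 0.06 (adjusted p = 0.375).

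Srpk3 separated the stages almost completely. Its counts in the 12 non-stretched myoblast libraries summed to 35, with 3 libraries at 0, and each non-stretched library of differentiated cells held between 1597 and 2093. Scaled over all 48 libraries, the level rose from 0.049 ± 0.047 to 30.4 ± 1.99 CPM, a log2 fold change of 9.27 (adjusted p = 3.47e-45). The low myoblast counts limit the precision of this fold, so no SE is given for it. In bulk RNA a larger share of cells with the gene cannot be told apart from more RNA per cell.

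Levels of different genes were compared per kilobase of exon. By the union of a gene's exons, Dyrk1a was the highest in non-stretched myoblasts (14.4 ± 0.479 CPM per kb, n = 12), followed by Srpk1 (9.58 ± 0.278), Clk1 (5.94 ± 0.549), Clk2 (5.70 ± 0.485), Clk3 (4.96 ± 0.168), Srpk2 (4.91 ± 0.259), Clk4 (4.18 ± 0.267) and Srpk3 (0.018 ± 0.017). From Clk1 to Clk4 in this order, the ranges of the libraries overlapped between each pair of neighbours. In differentiated cells the order was Dyrk1a (20.2 ± 0.769), Srpk3 (10.7 ± 0.690), Srpk2 (7.04 ± 0.233), Clk1 (6.76 ± 0.592), Clk2 (5.30 ± 0.583), Srpk1 (4.71 ± 0.111), Clk4 (4.29 ± 0.363) and Clk3 (3.81 ± 0.218), and the ranges overlapped between each pair of neighbours from Srpk2 to Clk3. The order depended on the length used. By the median length of a gene's transcripts, Srpk1 was the highest in myoblasts (108.6 ± 3.16 CPM per kb), followed by Clk1 (51.5 ± 4.76). In differentiated cells Dyrk1a (68.5 ± 2.60) was then followed by Srpk2 (62.2 ± 2.06) and Clk1 (58.6 ± 5.13), with overlapping ranges. By the length of the main protein-coding transcript, Clk1 was the highest in both stages, at 26.9 ± 2.49 and 30.6 ± 2.68 CPM per kb. Its libraries overlapped those of the next gene, with 24.9 to 34.1 against 24.2 to 26.6 for Srpk1 in myoblasts and 27.8 to 35.4 against 26.8 to 30.4 for Dyrk1a in the differentiated stage.

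**Figure D4:**
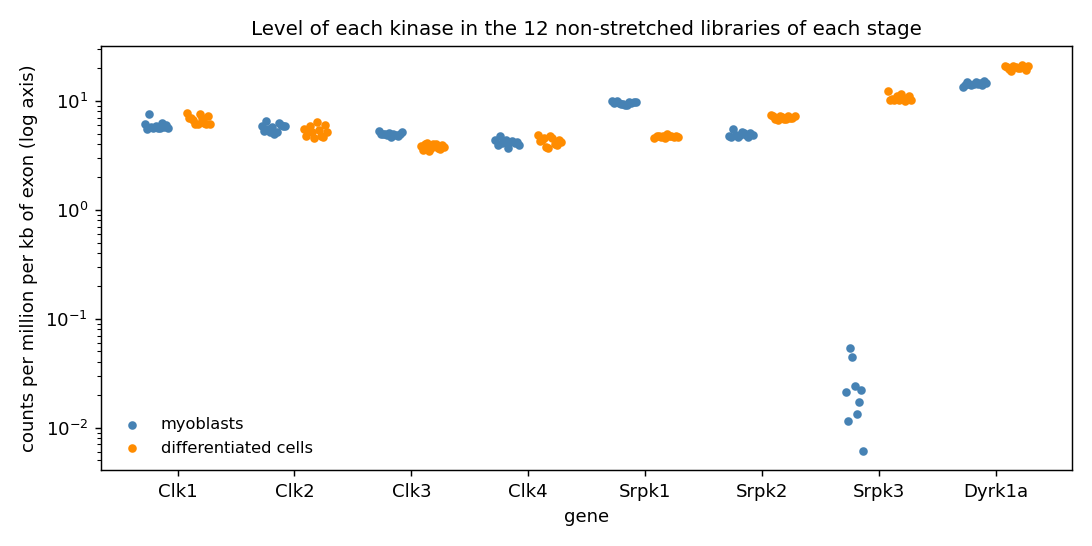
Level of each kinase in CPM per kilobase of exon (y axis, log scale) in the 12 non-stretched libraries of myoblasts (blue) and of differentiated cells (orange). Each point is a library, and the 3 myoblast libraries with 0 counts of Srpk3 cannot be drawn on a log axis. Srpk3 lies near 10.7 in differentiated cells and at or below 0.054 in myoblasts, while Clk2 and Clk4 lie at similar heights in both stages. CPM was scaled within each stage.

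The promoters of the kinases were searched for 8 motifs in the 250 bases before each start in RefSeq (GRCm38.p6), on both strands. Entries were found for 7 of 8 genes, and none for Clk1. The Clk4 promoter (chr11:51262864-51263113, plus strand) is shown because Clk4 changed at several times, and its capitals mark the cAMP response element TGACGTCA, whose leading base lies at -65. Among 32851 promoters of this length, 1.55% hold the element, and it was found in no other promoter of these kinases. Positions count back from the annotated start.
Clk4 promoter: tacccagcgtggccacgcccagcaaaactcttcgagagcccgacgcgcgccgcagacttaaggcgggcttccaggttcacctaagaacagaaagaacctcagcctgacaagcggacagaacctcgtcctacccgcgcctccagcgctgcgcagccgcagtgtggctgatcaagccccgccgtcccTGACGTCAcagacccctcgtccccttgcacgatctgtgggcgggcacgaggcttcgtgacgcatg
The Srpk3 promoter (chrX:73774155-73774404, plus strand) is shown because Srpk3 differed most between the stages. Its capitals mark a MEF2 site at -67 (in 2.92% of promoters), a pair of E-boxes CAGCTG of the kind that myogenic factors bind, at -86 and -78 (13%), and the TATA box TATAAA at -62 and -31, with another match on the minus strand at -64 (12.4%). The MEF2 site overlaps 2 of the TATA matches.
Srpk3 promoter: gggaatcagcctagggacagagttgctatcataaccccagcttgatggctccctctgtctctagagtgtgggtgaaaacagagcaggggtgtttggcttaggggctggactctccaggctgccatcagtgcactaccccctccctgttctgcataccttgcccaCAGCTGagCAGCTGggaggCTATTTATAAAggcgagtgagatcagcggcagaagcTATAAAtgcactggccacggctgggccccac
The other motifs searched were the AP-1 site TGANTCA (in 6.75% of promoters), CCAAT (33.8%), the heat shock pair GAANNTTC (6.69%) and the E-box CACGTG (6.02%). CCAAT was found in promoters of Clk2, Srpk2 and Dyrk1a and CACGTG in that of Clk2. A match is a run of letters in a window and was not tested for binding.

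The genes around these kinases were read from lists of named genes. Of the SR proteins and related substrates, 15 of 16 could be tested. In myoblasts, 5 were higher and 2 lower at 3 h, where 16% and 15.8% of all genes tested were, and 3 were higher and 2 lower at 6 h, against 14.1% and 13%. In differentiated cells, 6 were higher at 3 h, against 10.8%, and 8 were higher and 1 was lower at 6 h, against 11.5% and 10.8%. The same shares of all genes stand behind the counts of the lists that follow, and a count near them is not a result about a list. Srsf5, an SR protein gene, rose at 3 h by 0.41 ± 0.0344 in myoblasts (adjusted p = 5.75e-06) and 0.55 ± 0.0970 in differentiated cells (adjusted p = 0.00303), and was lower at 6 h by a log2 fold change of -0.70 ± 0.112 (adjusted p = 0.00123) and -0.66 ± 0.146 (adjusted p = 0.0102). At 1 h it was the only substrate to pass, in differentiated cells (0.34 ± 0.0626, adjusted p = 0.0450, or 0.0552 without stretched replicate 4), where 0.193% of genes were higher. In myoblasts 0 of 15 passed edgeR's quasi-likelihood test, 2 had an unadjusted p under 0.05 and DESeq2 passed 1. Srsf2 rose at 3 h in both stages, by 0.19 and 0.46, and Tra2a, a splicing activator with SR tails, rose at 6 h by 0.14 in myoblasts and 0.49 in differentiated cells. The median log2 fold change of the list reached 0.15 at 3 h and 0.12 at 6 h in the differentiated stage.

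Of 16 related kinases, which include other DYRK and HIPK genes, the transcription kinases Cdk9, Cdk12 and Cdk13, and topoisomerase I, which also phosphorylates SR proteins, 15 could be tested. In myoblasts 7 were higher and 1 was lower at 3 h, and 3 were higher and 1 was lower at 6 h. In differentiated cells 3 were higher at 3 h, and 3 were higher and 1 was lower at 6 h. The counts at 6 h lie near the shares of all genes. Cdk12, which phosphorylates RNA polymerase II, rose at 3 h by 0.17 ± 0.0364 in myoblasts (adjusted p = 0.00330) and 0.26 ± 0.0570 in differentiated cells (adjusted p = 0.00851). Dyrk2 rose by 0.31 ± 0.0402 at 3 h in myoblasts (adjusted p = 0.000103) and had a log2 fold change of -0.22 ± 0.0361 at 6 h (adjusted p = 0.00131). Top1 rose at 6 h by 0.23 ± 0.0312 in myoblasts (adjusted p = 0.000519) and 0.26 ± 0.0369 in differentiated cells (adjusted p = 0.00139). Dyrk1b, the closest relative of Dyrk1a, was lower in myoblasts at 3 h (-0.23 ± 0.0741, adjusted p = 0.0316) and in the differentiated stage at 6 h (-0.23 ± 0.0492, adjusted p = 0.00798).

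Of 18 partners, phosphatases and chaperones of the phosphorylation cycle, all could be tested. In myoblasts 10 were higher and 1 was lower at 3 h, and 6 were higher and 1 was lower at 6 h. In differentiated cells 5 were higher at 3 h and 12 were higher at 6 h, where 10.8% and 11.5% of genes were higher. Of the chaperones at 6 h, Hspa8 rose by 0.40 ± 0.0666 in myoblasts (adjusted p = 0.00152) and 0.51 ± 0.0886 in differentiated cells (adjusted p = 0.00329), and Hsp90aa1 by 0.30 ± 0.0846 (adjusted p = 0.0235) and 0.59 ± 0.102 (adjusted p = 0.00325). Ppp2cb, a catalytic subunit of protein phosphatase 2A, rose at 3 h by 0.17 in myoblasts and 0.21 in differentiated cells. Pnn, a nuclear speckle protein, rose at 6 h by 0.22 and 0.33.

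Other cell-state markers moved with some of these comparisons. The summed level of the differentiation markers in myoblasts at 1 h lay between 11.8 and 21.5 CPM without stretching and between 10.6 and 12.4 CPM with it. These ranges overlapped, and 0 of the 8 tested markers passed the test at 1 h. In myoblasts, of 8 tested differentiation markers 2 were lower at 3 h (Myog and Mybph, each by a log2 fold change of -0.82) and 1 at 6 h (Myog, -0.54), from low counts. Of 8 proliferation markers 2 were higher and 1 was lower at 3 h, and 2 were higher and 3 lower at 6 h. In differentiated cells 3 of 8 were higher at 3 h, and at 6 h 1 was higher (Myf5, by 0.51) and 1 lower (Id1, by a log2 fold change of -0.26). Counts of 1 or 2 of 8 lie near the shares of all genes. The summed level of the proliferation markers lay between 1816 and 2009 CPM in myoblasts at 3 h over both groups. The part of these shifts in the values of the kinases was not tested.

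The 5 genes whose log2 CPM ran most like each kinase over the 24 libraries of a stage were listed for kinases that passed at 2 or more times. The libraries share groups and experiments, so the coefficients describe these libraries alone. In myoblasts, among 11401 genes that averaged 100 counts or more, Clk1 was most like Fbxo30 (Pearson's r = 0.919), Clk4 (0.914), Trim59 (0.912), Zfp715 and Zfp280c (each 0.911). Clk4 was most like Nufip2 (0.920), Clk1 (0.914), Zbtb1 (0.909), Atg16l1 (0.900) and Atxn7 (0.881). Dyrk1a was most like Chd1 (0.951), Asap1 (0.938), F2r (0.932), Rbbp6 (0.926) and Foxj3 (0.925), and Srpk2 like Cast (0.916), Gk (0.894), Prkg2 (0.892), Azin1 (0.891) and Rbm3 (0.889). Among 11871 genes in differentiated cells, Clk3 and Clk4 were each other's most alike gene (0.902), followed for Clk3 by Stard4 (0.883), Sc5d (0.873), Hmgcs1 (0.871) and Isg20l2 (0.870), and for Clk4 by Hinfp (0.901), Pvr (0.860), Ndst2 (0.851) and Taf1a (0.850). Clk1 was most like 9930104L06Rik (0.941), Pvr (0.931), 0610030E20Rik (0.922), Pwwp2a (0.920) and Phf13 (0.916).

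These lists changed with the measure. With Spearman's rho in place of Pearson's r, 4 of 5 genes stayed for Clk1 and Clk4 in myoblasts and for Clk4 in differentiated cells, 2 for Clk3 there, and 1 for Dyrk1a and Srpk2 in myoblasts and Clk1 in differentiated cells. Once the difference between experiments was removed, 5 stayed for Clk1, 4 for Clk4, 4 for Dyrk1a and 0 for Srpk2 in myoblasts, and 4 for Clk1, 2 for Clk3 and 2 for Clk4 in differentiated cells.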

How the data were processed

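The data are 48 RNA-seq libraries of C2C12 cells, 24 per stage. Per the labels and the study's methods, the authors used STAR (mm10) for alignment and Salmon for transcript quantification, and deposited, for each stage, estimated counts as whole numbers per gene symbol without normalization (47480 symbols, 0 columns left out). Libraries were stranded mRNA. The labels name nuclear RNA, whereas the methods describe extraction with a kit from the cells. The study's methods describe the libraries of a group as separate samples, taken from 2 experiments for myoblasts and 3 for differentiated cells. By the labels, only the stretched group of differentiated cells at 1 h held samples of 3 experiments, and every other group of 2. The p-values thus measure the spread between samples of these experiments. Replicates 7 and 8, and 9 and 10, came from different experiments. The label of stretched myoblast replicate 9 at 1 h spells its experiment differently from its column, and the column's spelling was used.

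After a filter on low counts (filterByExpr) and TMM scaling, groups were compared in edgeR 4.0.16 (R 4.3.3, limma 3.58.1) by its quasi-likelihood test, with Benjamini-Hochberg adjustment over all genes tested and a threshold of 0.05. CPM was taken over TMM-scaled sizes, with a prior count of 1 before logs. Differences between times used 24 libraries in a model, and differences between stages 48. Only counting error and library spread are covered by the errors given. No 2 libraries of a group agreed within sampling noise. Deviations from the group means correlated too weakly between libraries of the same number (r from -0.045 to 0.152), so numbers were not taken to pair them. Alternatives were DESeq2 1.42.0, RLE normalization, other filters (none, or at least 10 counts in every library), the experiment as a covariate, a replicate block, all libraries of a stage in a model, glmTreat against 0.58 and leaving out each library. The length of the main protein-coding transcript was added after the values were seen. Scripts were tested on simulated data. Transcript features came from GENCODE vM21 and promoters from RefSeq, read with Biopython 1.88 in Python 3.11.15.

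The kinases and gene lists were chosen with earlier results of these data known. The text names all 8 kinases, from each other list up to 3 genes past the test with the largest change in a comparison, and the 5 genes most like a kinase. The changes of Myog and Mybph and the library that stood apart were singled out after their values were seen. Splicing and protein data were not analysed here.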

Additional observations from a re-analysis of the deposited data

Results flagged for a closer look

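In 4 of 96 groups of 4 libraries, a single library lay far from the other 3 by Dixon's criterion, which chance alone gives in about 1 in 20 groups. Clk1 in non-stretched differentiated cells at 6 h was 59.5 CPM in replicate 9 against 50.2 to 50.7 CPM. Clk2 in stretched differentiated cells at 1 h was 33.3 CPM in replicate 9 against 23.0 to 23.7 CPM. Clk3 in non-stretched myoblasts at 1 h was 45.0 CPM in replicate 7 against 41.9 to 42.3 CPM. Srpk3 in non-stretched differentiated cells at 1 h was 34.6 CPM in replicate 7 against 28.5 to 29.0 CPM.

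The stretch effect differed between times, by the interaction test of edgeR's quasi-likelihood model, in 17 cases, given as log2 differences of the later minus the earlier time. In myoblasts between 3 h and 1 h these were Clk1 (0.79), Clk3 (0.15), Clk4 (0.62) and Srpk1 (0.11). Between 6 h and 1 h they were Clk1 (0.63), Clk3 (0.17), Clk4 (0.49) and Dyrk1a (-0.17), and between 6 h and 3 h Srpk2 (-0.26) and Dyrk1a (-0.29). In differentiated cells they were Clk1 (0.98), Clk3 (0.33) and Clk4 (0.66) between 3 h and 1 h, and Clk1 (1.02), Clk3 (0.28), Clk4 (0.50) and Srpk1 (0.21) between 6 h and 1 h.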

How the results depend on the processing

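Against a log2 fold change of 0.58 (glmTreat), 0 kinases passed in any of the 6 stretch comparisons, with 1 at an unadjusted p under 0.05 in differentiated cells at 1 h. In differentiated cells at 1 h, DESeq2 passed 2 kinases and the model of 24 libraries 3, where edgeR with 8 libraries passed 1, and at 6 h the model of 24 libraries passed 2 in place of 4. That model also lost Srpk2 at 3 h (adjusted p = 0.0729) and Clk1 at 6 h (0.132) in myoblasts. The difference between 3 h and 1 h in myoblasts passed 2 kinases without a filter on low counts, and that between 6 h and 3 h in differentiated cells passed 1 with the experiment as a covariate and 1 with the replicate block. Leaving out a library moved the counts from 1 to 3 in myoblasts at 1 h, from 4 to 5 at 3 h, from 2 to 4 at 6 h, from 0 to 2 in differentiated cells at 1 h, from 3 to 4 at 3 h and from 1 to 5 at 6 h. For differences between times it moved them from 2 to 5, 4 to 5 and 2 to 3 in myoblasts (3 h against 1 h, 6 h against 1 h, 6 h against 3 h). In the differentiated stage the first count was 3 throughout, and the others moved from 3 to 4 and 0 to 1.

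Values near 0 changed sign when a library was left out: Srpk2 in myoblasts at 1 h (-0.062 to 0.026), Dyrk1a in myoblasts at 6 h (-0.018 to 0.026), Srpk2 in differentiated cells at 1 h (-0.022 to 0.047) and Srpk3 there (-0.035 to 0.084). The stage difference of Clk2 was 0.069 at 3 h alone. Of 360 stretch results under other settings, 326 kept their direction and side of the threshold, 24 lost the call and 10 gained it. The replicate block removed the calls of Clk3 in differentiated cells at 6 h (adjusted p = 0.0596) and of the Clk3 difference between 3 h and 1 h in myoblasts (adjusted p = 0.0654), and among these stretch and time results it removed no other. The cause of these changes was not tested. Srpk3 in myoblasts, with 0 to 9 counts, is below what this depth can test.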
